A study of Rattus norvegicus with 12 samples.

Results

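The heat shock proteins, their J protein partners and the chaperonins of the fetal rat kidney were described in 72 genes, chosen by symbol alone from the 14557 genes that could be named on the arrays. The symbols were those of the small heat shock proteins (Hspb), the Hsp70 and Hsp110 proteins (Hspa, Hsph), Hsp90, the mitochondrial Hsp60 and Hsp10 (Hspd, Hspe), the J proteins of types A, B and C (Dnaja, Dnajb, Dnajc) and the subunits 2 to 8 of the cytosolic chaperonin (Cct). The same pattern also took in 2 binding partners of Hsp70 or of small heat shock proteins (Hspbp1, Hspbap1) and 4 symbols of pseudogenes, which are counted as members and described apart. Well-known chaperones such as Hspa8, Hspd1, Hsp90aa1 and Hsp90b1 had no cluster of their own symbol here and are not described.

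Kidneys were taken from Sprague-Dawley rat fetuses at 19 days of gestation. In the chronic photoperiod shifting group (CPS), mothers had their light cycle fully inverted every few days from the start of pregnancy and were put back on the regular cycle at 18 days, while control mothers (LD) stayed under 12 h of light and 12 h of darkness. Each group had 6 arrays, and each array held RNA from a pool of kidneys of 6 fetuses, not sorted by sex and read here as the fetuses of 1 mother. The labels give 2 hours for the dissection, 20 h in one field and 8 h in another, and the study's methods give 8 h.

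Newly made proteins and proteins damaged by heat or oxidation expose sticky stretches that would clump. Hsp70 proteins bind such stretches and release them in a cycle driven by ATP. J proteins bring the client and start the cycle, and exchange factors such as the Hsp110 proteins end it. Small heat shock proteins hold unfolded clients without using ATP, Hsp90 matures kinases and steroid receptors, and the chaperonins, Hsp60 with its lid Hsp10 in mitochondria and the ring complex CCT in the cytosol, fold proteins inside a chamber. Heat shock factor 1 (Hsf1) switches on many of these genes by binding repeats of GAA and its reverse complement TTC near the start site, and the endoplasmic reticulum has its own circuit, the unfolded protein response. In the kidney, chaperones are known for their induction in tubules after ischemia and under the osmotic load of the medulla.

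The pools held kidney RNA. Of 18 kidney markers listed 13 were measured, with means over all arrays of 3.50 (Umod) to 9.10 (Gata3), all above the range of dim signal defined below. Markers of neighbouring tissues varied between pools. The mean of 9 liver markers was 5.30 to 7.46 in CPS pools and 4.71 to 7.08 in LD pools, highest in CPS replicate 2 and LD replicate 6, and the mean of 6 adrenal cortex markers, 2 of them dim, was 3.05 ± 0.46 in CPS and 2.58 ± 0.19 in LD. CPS replicate 1 stood highest in muscle markers. Results are therefore also given without CPS replicate 2 and LD replicate 6, and with the adrenal cortex mean as a covariate.

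Most differences of these genes between CPS and LD fetal kidneys were small, and the clearest was that of the J protein gene Dnajb1, which was lower in CPS. At an unadjusted p under 0.05 in limma, the threshold of the study's methods, 1 member was higher and 4 were lower in CPS, in all 5 of 72 members or 6.94%. Over all 36685 transcript clusters 5.30% passed, and over the named genes 4.72%, so the share of members lay near that of all genes. By direction, 1.39% of members were higher, against 2.38% of all clusters and 2.94% of named genes, and 5.56% were lower, against 2.93% of all clusters and 1.78% of named genes. With Benjamini-Hochberg adjustment over all clusters, limma left 0 members and 0 clusters under 0.05, and the smallest adjusted p was 0.887. The unpaired one-way test of the methods called 6 of 72 members before adjustment, where it called 5.51% of all clusters, and 0 after it. Each member named below had an adjusted p of 0.887 or above. The p printed for a gene comes from exact permutation, two-sided, over all ways to split 12 pools into 6 and 6 unless limma is named, and its lowest possible value is 0.00216.

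Of the 67 members not called, 61 had a 95% interval of the log2 fold change that lay within -0.5 and 0.5. The median log2 fold change, CPS minus LD, was -0.01 over all members, with 37 negative and 35 positive, against 0.01 over all named genes, of which 6758 were negative and 7799 positive. A value at or below 2.66, the 95th percentile of 1245 olfactory and vomeronasal receptor genes, which a kidney hardly uses, was taken as dim, and 13 members had a mean level in that range. Of the 59 members above it, 1 was higher and 2 were lower, or 5.08% called, against 4.77% of the 10574 named genes above it, where 3.05% were higher and 1.71% lower.

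**Figure D1:**
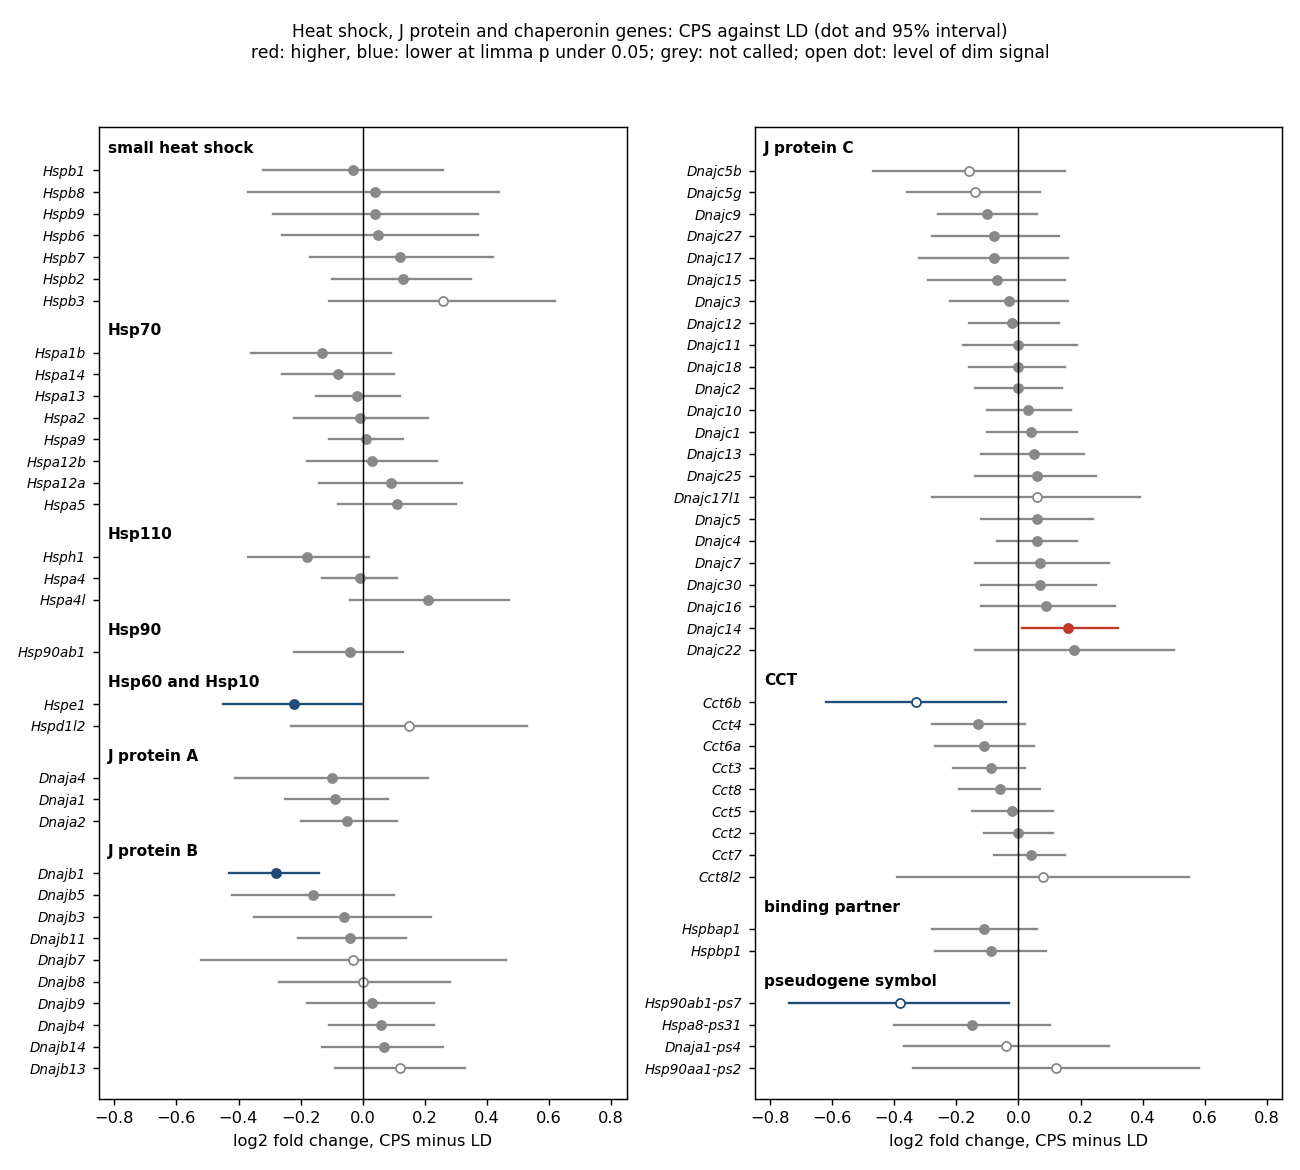
Log2 fold change (CPS minus LD) of the 72 member genes by class, with its 95% interval from limma over 6 CPS and 6 LD pools. Red marks the 1 member called higher, blue the 4 called lower and grey the 67 not called at an unadjusted p of 0.05, and open dots mark the 13 members of dim signal.

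J proteins hand clients to Hsp70. Dnajb1 is the main cytosolic J protein induced by heat, and with Hsp70 it also helps to pull protein aggregates apart. In CPS pools its RMA value on the log2 scale was 7.26 at the lowest, 7.41 at the median and 7.49 at the highest, against 7.51, 7.69 and 7.76 in LD pools. The 6 CPS pools all lay below the lowest LD pool. This gave a log2 fold change of -0.28 with a standard error of 0.07 (95% interval -0.43 to -0.14, limma p = 0.00102, exact permutation p = 0.00216), so Dnajb1 fell by 17.7% on the linear scale. It was the 1 member of 72 whose groups did not overlap, where 0.202% of all clusters and 0.295% of named genes did not. In the 12 fits that left out 1 array each, Dnajb1 was called every time, with log2 fold changes of -0.31 to -0.26. Without CPS replicate 2 and LD replicate 6 its log2 fold change was -0.26 and it was the 1 member called, and with the adrenal cortex mean as a covariate it was -0.27. In that last fit Cct4, Dnaja1, Dnaja4 and Hspa4l were called too, while Hspe1, Dnajc14, Cct6b and Hsp90ab1-ps7 were called in neither. In bulk RNA, fewer cells that express a gene and less RNA per cell cannot be told apart.

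The Dnajb1 promoter is shown because its gene carried the clearest difference. RefSeq (build GRCr8) places it at chr19:41431112-41431391 on the minus strand, from 250 bases before the start site to the first 30 bases after it. Capitals mark the letters GAANNTTC or TTCNNGAA, a pair of heat shock units found by search on both strands, where N is any base.
Dnajb1: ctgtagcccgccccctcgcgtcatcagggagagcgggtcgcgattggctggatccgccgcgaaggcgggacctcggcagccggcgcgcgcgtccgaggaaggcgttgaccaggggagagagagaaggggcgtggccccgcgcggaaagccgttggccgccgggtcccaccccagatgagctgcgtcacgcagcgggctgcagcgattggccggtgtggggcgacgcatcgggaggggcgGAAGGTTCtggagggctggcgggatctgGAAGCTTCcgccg
Counting the start site as position 1, with no position 0, the first match lay at positions -11 to -4 and the second at 18 to 25. A pair of this kind is common, being present in 15.9% of all 33469 promoter windows of 300 bases, so a match is only a description of the letters.

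The other J proteins of type B gave no call. Dnajb5, a J protein studied in heart muscle cells, averaged 4.09 ± 0.27 in CPS and 4.25 ± 0.13 in LD (SD, n = 6 each), with a log2 fold change of -0.16 (95% interval -0.42 to 0.10), which was -0.06 without CPS replicate 3. Dnajb11, the J protein that loads clients onto Hspa5 in the endoplasmic reticulum, had a log2 fold change of -0.04, and its mean was 8.23 ± 0.13 in CPS and 8.27 ± 0.12 in LD. Dnajb13, a J protein of the radial spokes of motile cilia and sperm tails, was in the dim range, with 2.70 ± 0.14 in CPS and 2.58 ± 0.18 in LD. Of the 10 members of type B, 5 had negative and 5 positive log2 fold changes.

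Type A J proteins are close relatives of the bacterial DnaJ, with a zinc finger that binds clients. All 3 had negative log2 fold changes and none was called. Dnaja1, which helps Hsp70 and Hsp90 mature steroid receptors, spanned 10.48 to 10.83 in CPS pools with a median of 10.71, against 10.64 to 10.93 in LD pools with a median of 10.73. The groups overlapped, and the log2 fold change was -0.09 (95% interval -0.25 to 0.08). Dnaja2 and Dnaja4 had log2 fold changes of -0.05 and -0.10.

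Type C J proteins share only the J domain and serve many special tasks. Of 23 members, 14 had positive and 9 negative log2 fold changes, with a median of 0.03. Dnajc14, a membrane J protein of the endoplasmic reticulum that takes part in the export of dopamine receptors, was the 1 member called higher. Its value was 7.74 at the lowest, 7.99 at the median and 8.10 at the highest in CPS pools, against 7.72, 7.80 and 7.84 in LD pools. The LD pools lay close together, and 5 CPS pools were above the highest of them. The log2 fold change was 0.16 with a standard error of 0.07 (limma p = 0.0439, exact permutation p = 0.0325), and Dnajc14 rose by 11.9% on the linear scale. Of the fits that left out 1 array, those without CPS replicate 3 or 4 kept the call. It was lost in the other 10, without any 1 LD replicate or without CPS replicate 1, 2, 5 or 6, where limma p was 0.0502 to 0.097 and the log2 fold change 0.13 to 0.17.

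Among the rest of type C, Dnajc9, a nuclear J protein that also guards histones, averaged 8.31 ± 0.09 in CPS and 8.41 ± 0.12 in LD, with a log2 fold change of -0.10 (95% interval -0.26 to 0.06). Dnajc7, which links Hsp70 to Hsp90, averaged 9.83 ± 0.11 in CPS and 9.75 ± 0.21 in LD. Dnajc10, which cuts disulfide bonds of misfolded proteins in the endoplasmic reticulum, averaged 9.23 ± 0.06 in CPS and 9.20 ± 0.09 in LD. Dnajc5g, a relative of the synaptic vesicle J protein Dnajc5, was dim, with 2.37 ± 0.12 in CPS and 2.51 ± 0.20 in LD. None of these passed the threshold.

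In mitochondria, Hspe1 encodes Hsp10, the lid of the Hsp60 chamber. In CPS pools its value was 8.36 at the lowest, 8.59 at the median and 8.82 at the highest, against 8.67, 8.81 and 9.04 in LD pools. The groups overlapped, with 4 CPS pools below the lowest LD pool. The log2 fold change was -0.22 with a standard error of 0.10 (limma p = 0.0481, exact permutation p = 0.0498), so Hspe1 fell by 14.4%. The call was lost without LD replicate 1, 2, 3 or 5 or without CPS replicate 1, 2, 4 or 5, with log2 fold changes of -0.24 to -0.18. Its partner gene Hspd1 had no cluster of its own symbol, and Hspd1l2, a gene named as like Hsp60, was dim with 2.28 ± 0.35 in CPS and 2.13 ± 0.29 in LD.

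Hspa9, mortalin, is the Hsp70 of the mitochondrial matrix, where it pulls in imported proteins and helps build iron-sulfur clusters. Its values hardly spread, at 10.62 to 10.73 with a median of 10.69 in CPS pools, against 10.61 to 10.77 with a median of 10.67 in LD pools. The log2 fold change was 0.01 (95% interval -0.11 to 0.13). The groups covered nearly the same range. Over the 6 mitochondrial members measured, of 10 listed, the median log2 fold change was 0.01, with 2 negative, 4 positive and Hspe1 alone called. Over the 29 cytosolic members measured, of 38 listed, the median was -0.02, with 18 negative, 11 positive and 2 called lower, Dnajb1 and Cct6b. Cct6b was in the dim range, and of the 27 cytosolic members above that range 1 was called lower. The 11 members of the endoplasmic reticulum had a median of 0.04, with 3 negative and Dnajc14 called higher. Over all named genes 4.72% were called, 2.94% higher and 1.78% lower. The difference between compartments was not tested.

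**Figure D2:**
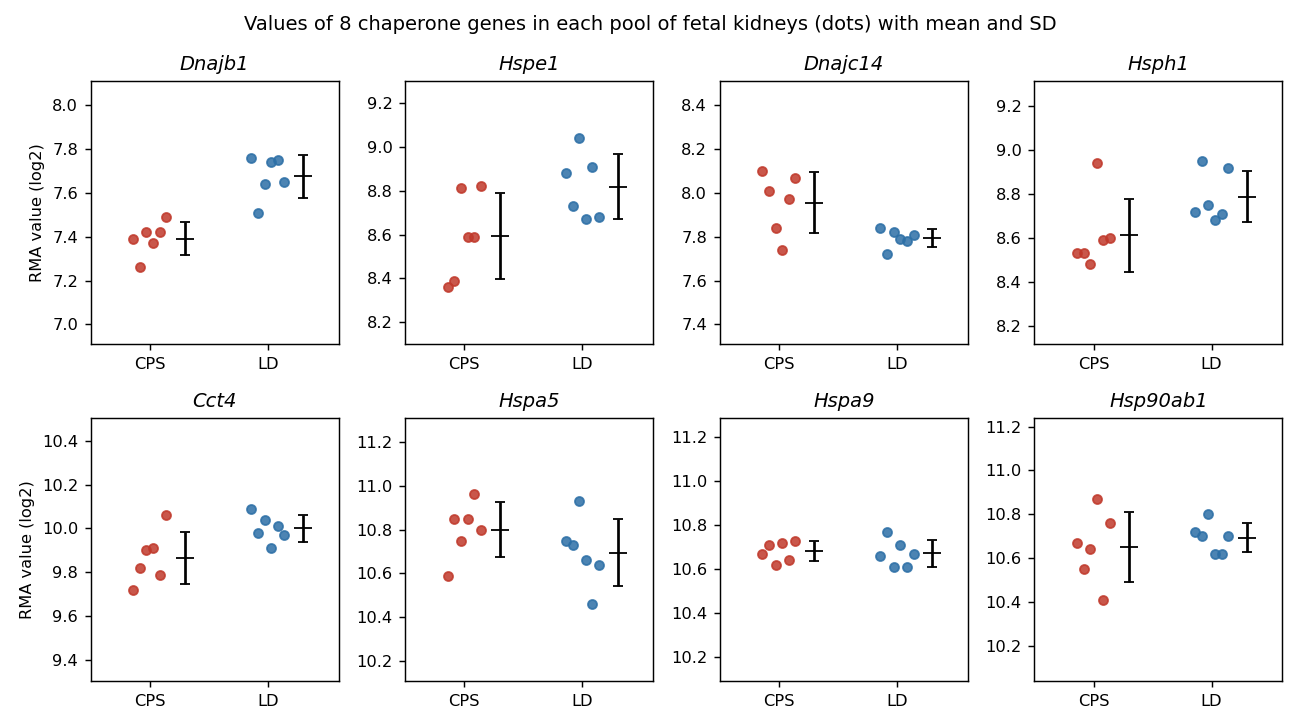
RMA values (log2, vertical axis of the same height in each panel) of 8 chaperone genes in the 6 CPS pools (red, left) and 6 LD pools (blue, right), with the mean and SD beside the dots. The Dnajb1 dots do not overlap between CPS and LD, those of Hspe1, Dnajc14, Hsph1 and Cct4 overlap in part, and those of Hspa5, Hspa9 and Hsp90ab1 cover a shared range.

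Hsp70 proteins as a class had a median log2 fold change of 0.00, with 4 of 8 negative and 0 called. Hspa5, or BiP, the Hsp70 of the endoplasmic reticulum, was 10.59 at the lowest, 10.83 at the median and 10.96 at the highest in CPS pools, against 10.46, 10.69 and 10.93 in LD pools. The spread within each group exceeded the difference between them, with a log2 fold change of 0.11 (95% interval -0.08 to 0.30, exact permutation p = 0.221). Hspa14, a ribosome-bound Hsp70, averaged 7.58 ± 0.15 in CPS and 7.66 ± 0.12 in LD. Hspa1b, 1 of the paired genes for stress-inducible Hsp70, lay just above the dim range, with 2.71 ± 0.10 in CPS and 2.85 ± 0.23 in LD. Its log2 fold change was -0.13 (95% interval -0.36 to 0.09). Without LD replicate 5 it was -0.21 and passed the threshold of the limma test. It has a near-identical neighbour, Hspa1a, so which copy the value measures is uncertain.

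Hsp110 proteins act as exchange factors of Hsp70 and help it to dissolve aggregates. Hsph1, a member of the class that heat induces, was 8.48 at the lowest, 8.56 at the median and 8.94 at the highest in CPS pools, against 8.68, 8.74 and 8.95 in LD pools. In CPS, 5 pools lay below the lowest LD pool, and replicate 4 at 8.94 lay among the highest LD pools. The log2 fold change was -0.18 (95% interval -0.37 to 0.02, exact permutation p = 0.0671), which did not pass the threshold, and without CPS replicate 4 it was -0.24 (limma p = 0.00681). The other 11 fits that left out 1 array did not call Hsph1, with limma p of 0.0588 to 0.143. Hspa4 had a log2 fold change of -0.01 (95% interval -0.13 to 0.11). Hspa4l, known from the mouse renal medulla for its induction by osmotic stress, averaged 3.94 ± 0.20 in CPS and 3.73 ± 0.21 in LD, a log2 fold change of 0.21 (95% interval -0.04 to 0.47). Without CPS replicate 6 that difference was 0.28, which passed the threshold of limma.

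Hsp90ab1, the constitutive cytosolic Hsp90, spanned 10.41 to 10.87 in CPS pools and 10.62 to 10.80 in LD pools. Its log2 fold change was -0.04 (95% interval -0.22 to 0.13), and the CPS pools spread more widely than the LD pools, with an SD of 0.16 in CPS and 0.07 in LD. That difference in spread was not tested.

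CCT is a double ring of 8 different subunits that folds actin, tubulin and cell cycle proteins. Of the 9 members with a Cct symbol, 7 lay above the dim range, and none of these 7 was called. Their median log2 fold change was -0.06, with 5 negative and 2 positive, and with each array centred on its median it was -0.02, with 4 negative. Cct4 was 9.72 at the lowest, 9.86 at the median and 10.06 at the highest in CPS pools, against 9.91, 9.99 and 10.09 in LD pools. In CPS, 4 pools fell below every LD pool and the highest reached into the LD range. The log2 fold change was -0.13 (95% interval -0.28 to 0.02, limma p = 0.0771, exact permutation p = 0.039), and without CPS replicate 6 it was -0.17 and passed (limma p = 0.0217).

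Cct3 spanned 10.33 to 10.44 in CPS pools with a median of 10.41, against 10.42 to 10.56 in LD pools with a median of 10.50. This was a small difference with small spread, a log2 fold change of -0.09 (95% interval -0.21 to 0.02). The exact permutation p was 0.00649 and limma p was 0.11, since limma draws the spread of a gene toward that of all clusters. The unpaired one-way test, which takes each gene on its own spread, called Cct3 and Cct4. Cct6a and Cct8 had log2 fold changes of -0.11 (95% interval -0.27 to 0.05) and -0.06 (95% interval -0.19 to 0.07), and Cct2, Cct5 and Cct7 had 0.00, -0.02 and 0.04. The intervals of these 7 subunits all lay within -0.28 and 0.15.

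The remaining Cct symbols were dim. Cct6b, a subunit known from the testis, was called lower, with 2.08 ± 0.27 in CPS and 2.41 ± 0.20 in LD and a log2 fold change of -0.33 (limma p = 0.028, exact permutation p = 0.0411). Both means lay below 2.66. The call was lost without LD replicate 1, 3 or 4 or without CPS replicate 1, 2, 3 or 4, with log2 fold changes of -0.31 to -0.29. Cct8l2 averaged 2.59 ± 0.30 in CPS and 2.51 ± 0.49 in LD.

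Heat shock elements of 3 units in a row, which trimers of Hsf1 bind, were searched for as GAANNTTCNNGAA and its reverse complement in promoter windows of 250 bases before to 50 after the start site. RefSeq windows were matched by symbol for 57 of the 72 members. The element was present in 4 of them, or 7.02%, against 0.798% of all 33469 windows, and the 4 were Hspe1, Hsph1, Cct4 and Dnaja1. The looser pair, which the 3-unit element contains, was in 17 member windows or 29.8%, against 15.9% of all. Members were picked by heat shock symbols, and Hsf1 switches on many such genes, so these shares describe that choice and not CPS. These 4 sequences are shown with the element in capitals, since the letters give what the symbols do not. For Hspe1 and Hsph1 capitals also mark every further pair, and the windows end 30 bases after the start site. All 4 lie on the plus strand, at chr9:64084077-64084356 for Hspe1, chr12:10427118-10427397 for Hsph1, chr14:101193073-101193102 for Cct4 and chr5:60638404-60638433 for Dnaja1.
Hspe1: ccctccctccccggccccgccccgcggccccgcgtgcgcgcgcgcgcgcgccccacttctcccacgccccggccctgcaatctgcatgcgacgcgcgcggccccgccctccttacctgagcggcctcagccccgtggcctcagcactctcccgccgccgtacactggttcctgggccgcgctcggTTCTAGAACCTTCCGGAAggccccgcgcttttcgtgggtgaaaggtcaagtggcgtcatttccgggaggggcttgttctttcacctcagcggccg
Hsph1: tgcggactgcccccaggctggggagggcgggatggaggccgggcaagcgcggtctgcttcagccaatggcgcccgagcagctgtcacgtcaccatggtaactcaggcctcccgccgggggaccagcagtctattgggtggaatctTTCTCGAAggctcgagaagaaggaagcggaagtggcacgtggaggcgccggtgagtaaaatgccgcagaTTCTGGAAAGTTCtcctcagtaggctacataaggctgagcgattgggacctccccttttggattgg
Cct4: ggcgtcgctTTCTGGAAGGTTCgtggaggc
Dnaja1: ggccgggcgGAACTTTCCAGAAcgctcggt
In Hspe1 overlapping matches ran from position -65 to -48, and in Hsph1 the element lay at -36 to -24. In Cct4 and Dnaja1 it lay after the start site, at positions 26 to 38 and 10 to 22. The log2 fold changes of these 4 genes were -0.22 for Hspe1, -0.18 for Hsph1, -0.13 for Cct4 and -0.09 for Dnaja1, all negative, and Hspe1 alone passed the threshold. The element also stood in the windows of Serpinh1, the collagen chaperone, and Chordc1, a partner of Hsp90, which are no members and had log2 fold changes of 0.02 and -0.11. Members with the pair but not the 3-unit element had log2 fold changes from -0.28 (Dnajb1) to 0.21 (Hspa4l). Eif2ak3, a gene of the unfolded protein response described below, had pairs at -199 to -192 and -128 to -121. Its log2 fold change was 0.25. The 4 members with the 3-unit element had been seen to lean downward before the search, and whether the element has a part in this was not tested.

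The endoplasmic reticulum stress element, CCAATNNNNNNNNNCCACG, was in the windows of Hspa5 and Dnajc3, 3.51% of members against 0.0657% of all. These shares too describe the choice of members and not CPS. Dnajc3 encodes an inhibitor of the stress kinase that Eif2ak3 encodes, and it was 7.98 ± 0.14 in CPS and 8.01 ± 0.14 in LD. The stretches around the element are given for contrast with the heat shock elements, with the element in capitals, from the plus strand of chr3:38452952-38453011 for Hspa5 and chr15:102432513-102432572 for Dnajc3.
Hspa5: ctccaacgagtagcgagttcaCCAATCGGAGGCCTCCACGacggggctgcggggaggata
Dnajc3: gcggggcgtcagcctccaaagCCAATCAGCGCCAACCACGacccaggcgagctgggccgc
Neither gene passed the threshold, with log2 fold changes of 0.11 and -0.03.

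**Figure D3:**
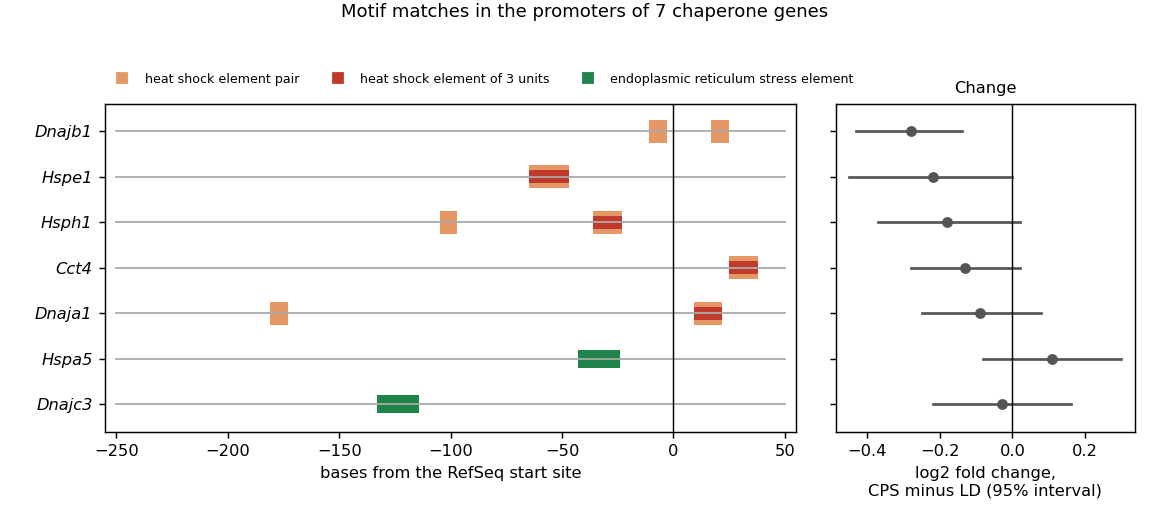
Left, positions of motif matches in the promoter windows of 7 chaperone genes (horizontal axis, bases from the RefSeq start site), with pairs in orange, elements of 3 units in red and endoplasmic reticulum stress elements in green. Right, log2 fold change (CPS minus LD) of the same genes with its 95% interval, which excludes 0 for Dnajb1 and, narrowly, for Hspe1.

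Hsf1 itself averaged 6.60 ± 0.11 in CPS and 6.60 ± 0.12 in LD (95% interval of the log2 fold change -0.17 to 0.16), and of 5 regulators of the heat shock response measured, 0 were called. The arrays measured RNA, and the activity of the Hsf1 protein was not measured. Of 14 genes known as targets of Hsf1 that were measured, of 19 listed, 9 had negative and 5 positive log2 fold changes. Their median was -0.06, and the 2 called lower were Dnajb1 and Hspe1, both described above. Over all named genes 46.4% were negative and 1.78% were called lower, and no test was run on the list. Bag3, a target of Hsf1 that pairs with small heat shock proteins, had a log2 fold change of 0.04, and Serpinh1 had 0.02.

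Partner genes of Hsp90 and of CCT had small negative differences without a call. All 11 genes measured of the Hsp90 co-chaperone list, of 15 listed, had negative log2 fold changes, between -0.14 and -0.01 with a median of -0.10. That list also holds Trap1, itself an Hsp90 of mitochondria, at -0.05. Stip1, which holds Hsp70 and Hsp90 together, was 10.62 at the lowest, 10.73 at the median and 10.81 at the highest in CPS pools, against 10.80, 10.84 and 10.91 in LD pools. Here 4 CPS pools lay below all LD pools, and the log2 fold change was -0.11 (95% interval -0.23 to 0.02, limma p = 0.0866, exact permutation p = 0.00866). Fkbp4, an immunophilin of steroid receptor complexes, had a log2 fold change of -0.14 (95% interval -0.32 to 0.04).

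Prefoldin brings unfolded actin and tubulin to CCT. All 8 genes measured of prefoldin and partners of CCT, of 10 listed, had negative log2 fold changes, between -0.14 and -0.03 with a median of -0.09, among them Tcp1, the first subunit of CCT, at -0.03. Pfdn6 averaged 9.34 ± 0.05 in CPS and 9.47 ± 0.17 in LD, and Pdcl, a phosducin-like partner of CCT, had a log2 fold change of -0.12 (95% interval -0.30 to 0.07). None of the 8 was called. The even direction depended on the scaling. With each array centred on its median, the median of all named genes was 0.05. Then 8 of the 11 genes of the Hsp90 co-chaperone list and 6 of the 8 prefoldin and CCT partner genes stayed negative. After a further quantile normalization 11 and 7 did.

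Of 12 genes of the unfolded protein response, 1 was higher and 11 were not called. Over all named genes 2.94% were called higher and 4.72% were called in either direction. Eif2ak3 encodes PERK, the kinase that slows translation when the endoplasmic reticulum is overloaded. It was 6.38 at the lowest, 6.48 at the median and 6.53 at the highest in CPS pools, against 5.92, 6.23 and 6.39 in LD pools. Here 5 CPS pools lay above the highest LD pool, and the log2 fold change was 0.25 with a standard error of 0.08 (limma p = 0.01, limma adjusted p = 0.887, exact permutation p = 0.00433). It was called in each of the 12 fits that left out 1 array, at 0.21 without CPS replicate 2 and LD replicate 6 and at 0.28 with the adrenal cortex mean as a covariate. Atf4, Ddit3, Xbp1 and Calr, all targets or effectors of this response, had log2 fold changes of -0.01, 0.06, 0.01 and -0.02, and Sdf2l1, a partner of Hspa5, had -0.15 (95% interval -0.34 to 0.05).

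Of 10 exchange factors and regulators of Hsp70, 7 had negative log2 fold changes and 0 were called. Bag4 had 0.15 (95% interval -0.09 to 0.39) and Grpel1, the exchange factor of Hspa9, had -0.10 (95% interval -0.29 to 0.10). Of 8 genes of mitochondrial proteases and import, 6 were negative and 0 called, with Clpp, a matrix protease, at -0.09 and Hscb, a J protein of iron-sulfur cluster assembly, at 0.09.

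**Figure D4:**
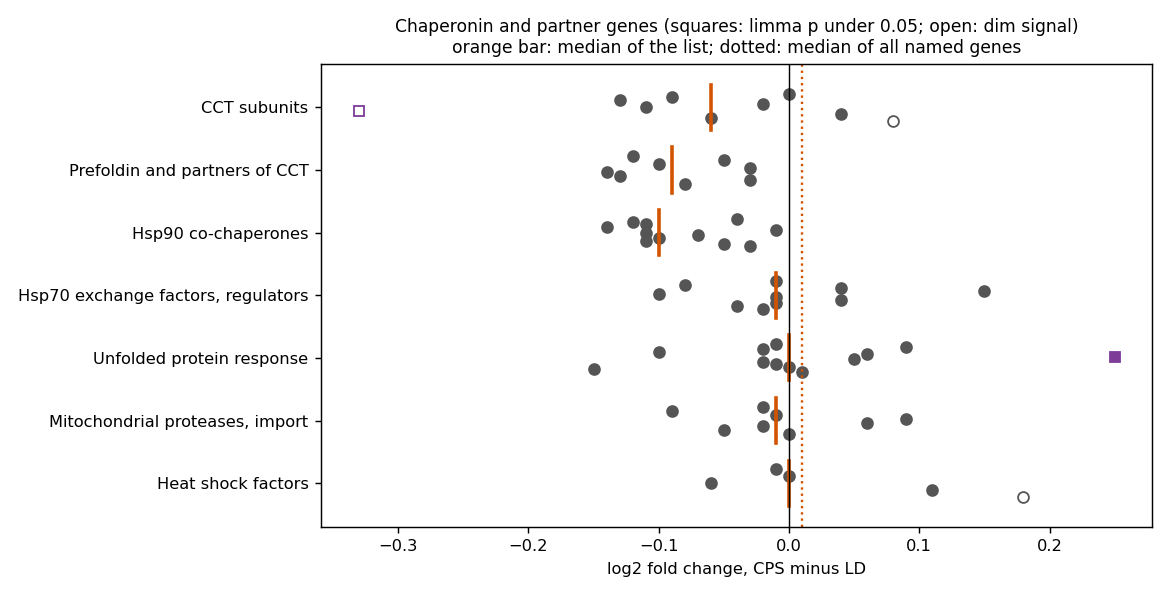
Log2 fold change (CPS minus LD, horizontal axis) of each CCT member and of genes in 6 lists of partners and regulators, 1 point per gene. All 8 prefoldin and CCT partner genes and all 11 genes of the Hsp90 co-chaperone list lie left of 0, with list medians (orange bars) of -0.09 and -0.10, while the median of all named genes is 0.01 (dotted line), and squares mark the 2 genes called, Cct6b and Eif2ak3.

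Small heat shock proteins are abundant in muscle and in the smooth muscle of vessels, and none of them was called. Of 7 members, 6 had positive and 1 had negative log2 fold changes, with a median of 0.05. Hspb1, or Hsp27, a guard of actin filaments, averaged 6.39 ± 0.21 in CPS and 6.42 ± 0.26 in LD, with a log2 fold change of -0.03. Hspb6, which relaxes smooth muscle, averaged 6.90 ± 0.32 in CPS and 6.84 ± 0.20 in LD. Hspb2, a partner of a muscle kinase, had a log2 fold change of 0.13 (95% interval -0.10 to 0.35), Hspb7, a heart muscle form, had 0.12 (95% interval -0.17 to 0.42), and Hspb3, a muscle form in the dim range, had 0.26 (95% interval -0.11 to 0.62).

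Muscle markers moved with some of these genes. Of 16 such markers listed, 9 were measured, and Myh6 was dim. Their mean was 7.62 in CPS replicate 1 and 5.18 to 6.68 in the other CPS pools, against 5.10 to 6.08 in LD pools. CPS replicate 1 also had the highest value of the 12 pools for Hspb2 (5.34), Hspb3 (2.99), Hspb6 (7.25), Hspb8 (5.07) and the related crystallin Cryab (6.64). For Hspb6 the margin was narrow, with 7.20 in CPS replicate 2 and 7.19 in LD replicate 2. Over 12 pools and 8 genes tested, Cryab had a Pearson r of 0.85 with the muscle mean (permutation p = 0.00098, adjusted 0.00784) and a Spearman rho of 0.62 (permutation p = 0.037, adjusted 0.148). Without CPS replicates 1 and 6, the pools farthest from the median, r was 0.64. Hspb2 had an r of 0.74 (permutation p = 0.00865, adjusted 0.0346) and a rho of 0.74 (permutation p = 0.00774, adjusted 0.0619), and r was 0.67 without those pools.

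Hspb8, which works with Bag3 to clear damaged filament proteins, had an r of 0.71 (permutation p = 0.0147, adjusted 0.0392) and a rho of 0.45 (permutation p = 0.148, adjusted 0.27), and r was 0.17 without CPS replicates 1 and 6. Its relation therefore rests on those pools. For Hspb3 r was 0.69 (permutation p = 0.0204, adjusted 0.0408), rho was 0.39 (permutation p = 0.21, adjusted 0.28), and r was -0.17 without those pools, so it rests on them too. Within the groups, r for Hspb2 was 0.90 in CPS and 0.66 in LD and that for Cryab was 0.90 in CPS and 0.52 in LD, while for Hspb8 it was 0.97 in CPS and 0.0011 in LD and for Hspb3 0.94 in CPS and -0.87 in LD, opposite in sign. Hspb1, Hspb6, Hspb7 and Hspb9 had r of 0.48, 0.015, 0.58 and 0.19 and rho of 0.50, -0.11, 0.43 and 0.33, with adjusted permutation p of 0.0717 or above. The part of muscle in the differences between CPS and LD was not tested.

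**Figure D5:**
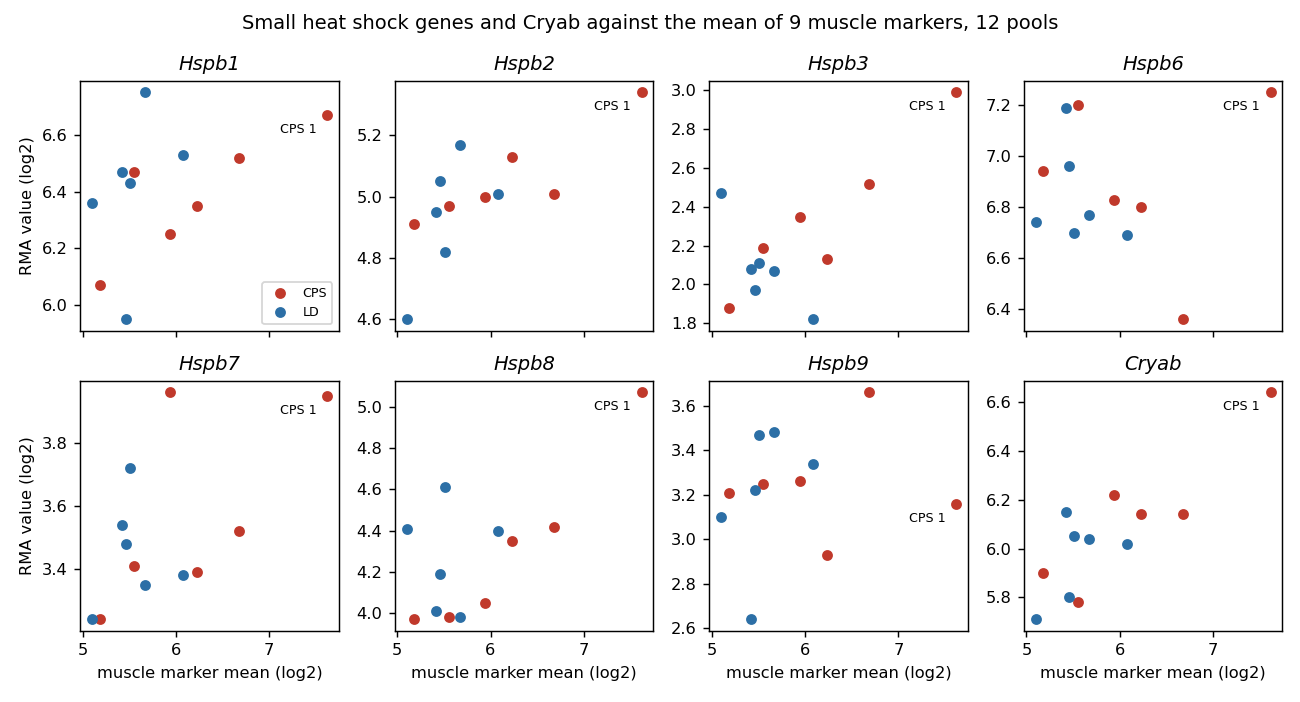
RMA value (log2, vertical axis) of 7 small heat shock genes and Cryab against the mean of 9 muscle markers (log2, horizontal axis) in 6 CPS pools (red) and 6 LD pools (blue). CPS replicate 1 stands at the far right at 7.62 in every panel and is the highest pool for Hspb2, Hspb3, Hspb8, Cryab and, narrowly, Hspb6.

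The 4 pseudogene symbols were described apart, since a cluster of a processed copy can take up RNA of its parent gene. Hsp90ab1-ps7 was called lower, with 1.72 ± 0.23 in CPS and 2.10 ± 0.36 in LD, a log2 fold change of -0.38 (limma p = 0.0365, exact permutation p = 0.0563), all in the dim range. The call was lost without LD replicate 1, 3, 4 or 6 or without CPS replicate 1, 2, 3 or 5, with log2 fold changes of -0.39 to -0.31. Hspa8-ps31 averaged 3.62 ± 0.27 in CPS and 3.77 ± 0.10 in LD. The binding partners Hspbp1, an exchange factor of Hsp70, and Hspbap1, which binds Hspb1, had log2 fold changes of -0.09 (95% interval -0.27 to 0.09) and -0.11 (95% interval -0.28 to 0.06).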

How the data were processed

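Fetal kidney RNA of 12 pools was measured on Affymetrix Rat Gene 2.1 ST arrays, and RNA with an integrity number of 7 or more was used. The log2 values deposited by the authors had been made with Robust Multiarray Average (RMA), in which background is subtracted, quantiles are equalized between arrays and probes are combined into transcript clusters. The submitters' processing notes name Affymetrix Expression Console and RMA, with versions not given in the sources used here. Medians of the arrays were 3.31 to 3.50 and correlations between arrays were 0.978 to 0.987. Precision is limited by the number of arrays. Residuals of a cluster had a median SD of 0.23. Pools are the replicates, and groups follow the sample titles. All 12 columns were mapped, and 0 were left unmapped.

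Of 36685 clusters, 14824 had a single gene symbol in the annotation of the platform, 829 had several and 21032 had none. Clusters with several symbols, of which 3 held a symbol of the pattern, named no gene. The cluster with the highest mean was kept per gene, which left 14557 genes and, of 76 clusters with a member's symbol, 72 members (3 with more than 1 cluster). The gene IDs of 71 members were found in RefSeq. Members, gene lists and classes were chosen with earlier results of these data known, so no test was run over a list and no p was adjusted over members alone.

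CPS and LD were compared with limma 3.58.1 (lmFit and eBayes, two-sided, R 4.3.3) over all clusters, with calls at an unadjusted p of 0.05 and Benjamini-Hochberg adjustment over the same clusters. Exact permutation was run for single genes (Python 3.11.15, scipy 1.17.1), and 100000 permutations of the pools for correlations, with adjustment over the 8 genes. The fit was tested on simulated arrays. Named genes were the members called, the 3 of lowest p and the 2 of highest mean level in each class, all members of the Hsp90, Hsp60 and Hsp10 and CCT classes, and in each partner list those called and the 2 of lowest p, in all 41 members and 14 partner genes. Others named (Atf4, Ddit3, Xbp1, Calr, Hsf1, Bag3, Tcp1, Trap1, Hspb8, Hspb9, Dnajc3) were chosen after their values were seen. Promoters came from RefSeq (GRCr8), used for names and sequences alone.

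Alternatives were the replicate block, the methods' one-way test, an intensity trend with robust spread, array weights, centring on array medians, quantile normalization once more, a filter at the median level, named genes alone with 1 cluster each, every cluster of a member, a filter on dim members, and each array left out. The adrenal cortex mean as a covariate and the fit without CPS replicate 2 and LD replicate 6 were added once the data had been seen.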

Additional observations from a re-analysis of the deposited data

Results flagged for a closer look

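In 110 groups of 6 pools (members and partner genes named by the rule, CPS and LD apart), the highest or lowest pool was tested for its gap to the others with Dixon's 95% critical value, which chance passes in about 1 group in 20. In 5 groups a pool lay apart. Hsph1 was 8.94 in CPS replicate 4, with the next pool at 8.60 and the lowest at 8.48. Dnajb5 was 3.57 in CPS replicate 3, below the next pool at 4.02 and the highest at 4.27. Cct8 was 10.18 in LD replicate 2, with the next pool at 10.07 and the lowest at 10.02. Dnajc10 was 9.02 in LD replicate 6, below the next pool at 9.22 and the highest at 9.28. Hspa14 was 7.43 in LD replicate 4, below the next pool at 7.64 and the highest at 7.75.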

How the results depend on the processing

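Dnajb1 was called in the main analysis and under all of its alternatives, 23 fits in total, with log2 fold changes of -0.31 to -0.24, limma or one-way p of 0.000206 to 0.00785 and adjusted p of 0.7 to 0.984. Over 1199 values of single genes, 1112 kept their direction and side of the threshold, 50 lost the call, 17 gained it and 20 changed sign at 2 decimals, none of these called in either fit. Under median centring and quantile normalization these were 0.02 and 0.04 for Cct5 and 0.02 and 0.02 for Hspa4, and under median centring 0.01 for Hspb1. With the adrenal covariate they were -0.05 for Cct8l2, -0.03 for Hspa9 and -0.13 for Hspd1l2. Without CPS replicate 2 and LD replicate 6 they were -0.02 for Dnajc10 and Hspb6 and 0.02 for Hspb1. The other 9 came from leaving out 1 array, with ranges of -0.02 to 0.21 for Cct8l2, -0.07 to 0.01 for Dnajb11, -0.09 to 0.01 for Hsp90ab1, -0.03 to 0.01 for Hspa4, -0.12 to 0.04 for Hspb1 and -0.01 to 0.16 for Hspb6. Medians changed sign in 11 values over 4 classes (Hsp110, Hsp90, Hsp60 and Hsp10, and J protein B) and in 5 values over the mitochondrial and cytosolic genes, within -0.04 to 0.04.

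The count of members called was 5 of 72 (5.30% of clusters). It moved to 8 with an intensity trend and robust spread (5.62% of clusters). With median centring it was 2 (1 higher, 1 lower, 4.97% of clusters). At or above the median level it was 3 of the 57 members tested (6.67% of clusters), with Cct6b and Hsp90ab1-ps7 below that level and not tested. Without CPS replicate 2 and LD replicate 6 it was 1 (Dnajb1, 4.5% of clusters). Leaving out 1 array at a time gave 1 to 6, where 4.47% to 6.96% of clusters passed. The count was 1 (Dnajb1) without LD replicate 1 or 3 or CPS replicate 1 or 2. It was 2 without LD replicate 4 or CPS replicate 5, and 3 without LD replicate 2 or 6 or CPS replicate 3. Clusters called were 1946 of 36685 (872 higher, 1074 lower), and 1639 to 2555 with 1 array left out. Of the 18343 clusters at or above the median level 1223 were called (6.67%). Of the 14557 left with 1 cluster per named gene 850 were called (5.84%). Median centring gave 1151 higher and 672 lower. With the adrenal cortex mean as a covariate the mitochondrial median was -0.04, against 0.01, and that of CCT -0.12, against -0.06. The causes were not tested.

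The replicate numbers did not pair the pools, since same-numbered pools correlated at -0.0639 to 0.0461 and 1 of 6 correlated best with its own number. With the replicate number as a block, 3 members (Dnajb1, Hsp90ab1-ps7 and Hspa4l) and 1984 clusters (5.41%) were called.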
